A study of Homo sapiens with 9 samples.

Results

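The genes of the cytosolic ribosomal proteins were followed in HCCLM3 cells given the flavonol quercetin. A gene was a member when its symbol was RPL or RPS with a number, RPLP0, RPLP1, RPLP2 or RPSA; the ribosomal S6 kinases are not members. The rule found 84 of the 17492 genes in the table, 52 of the large and 32 of the small subunit. HCCLM3 is an established human hepatocellular carcinoma line, labelled as highly metastatic and wild type, and every sample comes from that line. The 9 samples were 3 that received the vehicle DMSO (control), 3 that received quercetin at 50 µM, and 3 that received it at 100 µM, each sequenced as poly(A)-selected RNA. How long the cells were treated is not stated in the labels. Replicates are numbered 1 to 3, with no word on whether each was its own culture: a p-value here weighs a difference against the spread of these libraries, which may be technical.

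A eukaryotic ribosome joins a small subunit, which reads the message, to a large subunit, which links the amino acids, and each carries a fixed set of proteins. The mRNAs of most of these proteins begin with a short run of pyrimidines at the cap, the 5′ terminal oligopyrimidine (TOP) tract, through which mTORC1 and the protein LARP1 control their translation and stability. Dividing tumour cells keep these mRNAs abundant. Several members have a paralogue, such as RPS27L beside RPS27, that can take the place of its partner or is used in a particular tissue.

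The starts of 12 members are printed because they show what most members share and what some lack. RefSeq (GRCh38.p14) gave a start for 67 of the 84 members. Each sequence runs from 20 bases before the start to the first 20 transcribed bases, 5′ to 3′ on the gene's strand. Capitals mark the tract: a C at the first transcribed base and the unbroken run of C and T after it, of at least 4 bases. The first 8 hold such a tract at that base and the last 4 do not. RPS28 begins with an A, and a run of C and T led by C follows from the next base. Lacking the tract at the first base is not particular to paralogues: RPL3 and RPL10 lack it at their start too, and the paralogue RPL22L1 holds it.
RPLP0, chr12:120201092-120201131, minus strand: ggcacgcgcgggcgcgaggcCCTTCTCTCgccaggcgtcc
RPL13A, chr19:49487588-49487627, plus strand: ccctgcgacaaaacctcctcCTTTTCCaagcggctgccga
RPL31, chr2:101002269-101002308, plus strand: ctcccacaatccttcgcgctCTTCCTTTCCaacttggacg
RPS27, chr1:153990742-153990781, plus strand: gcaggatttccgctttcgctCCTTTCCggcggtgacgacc
RPL22, chr1:6199576-6199615, minus strand: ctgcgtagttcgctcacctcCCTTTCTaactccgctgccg
RPLP1, chr15:69452798-69452837, plus strand: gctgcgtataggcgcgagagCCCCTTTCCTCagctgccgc
RPL28, chr19:55385912-55385951, plus strand: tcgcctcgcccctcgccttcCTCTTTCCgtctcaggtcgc
RPL22L1, chr3:170870176-170870215, minus strand: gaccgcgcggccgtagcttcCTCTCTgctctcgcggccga
RPS28, chr19:8321476-8321515, plus strand: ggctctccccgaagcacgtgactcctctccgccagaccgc
RPS27L, chr15:63157458-63157497, minus strand: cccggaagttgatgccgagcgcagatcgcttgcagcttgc
RPL26L1, chr5:172958709-172958748, plus strand: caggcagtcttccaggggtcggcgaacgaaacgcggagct
RPL7L1, chr6:42879596-42879635, plus strand: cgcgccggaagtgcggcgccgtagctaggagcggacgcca

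Of the 67 members with a start, 43 (64.2%) began with the tract, against 676 of 13932 genes in the table (4.85%), on the transcribed strand alone. With the tract allowed to begin within 10 bases of the start on either side, 56 members held it (83.6%), against 34.2% of all genes. The longest tract was 19 bases, in RPL39, and the median was 8 bases. A start that lacks these letters says only that they are not at that annotated base.

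The libraries held 20061031 to 21599661 estimated counts, and 83 members passed the filter on low counts: 51 of the large and 32 of the small subunit. The member that did not pass was RPL10L, the testis paralogue of RPL10, with at most 0.09 CPM (counts relative to the scaled library total) in any library. Over the 12832 genes tested, the spread between replicates corresponded to a coefficient of variation of 14.4%. Replicate 3 at 100 µM stood apart from its group: a chi-square per gene was 85 and 87.2 against the other 2 libraries, which differed from each other by 5.1. Control replicate 1 stood apart less, with 28.2 and 28.1 against 3.63 between the other 2 controls. The 50 µM libraries differed by 4.29 to 4.82. The 50 most abundant genes took 18.13% of the counts in 100 µM replicate 3 and 15.28 to 15.98% in the other libraries. KRT8 and KRT18, keratins of liver epithelium, ran at 2645 to 3726 and 717 to 1434 CPM. KRT18 had 1221 to 1434 CPM in the control, 960 to 992 CPM at 50 µM and 717 to 1152 CPM at 100 µM. ALB, the defining secreted protein of hepatocytes, had 0.81 to 2.05 CPM in the control, 6.14 to 10.6 CPM at 50 µM and 7.02 to 16.3 CPM at 100 µM. TF, transferrin, had 17 to 40.2 CPM in the control, 126.8 to 136.1 CPM at 50 µM and 139.5 to 196.2 CPM at 100 µM. APOB had 8.01 to 9.2 CPM in the control, 1.68 to 1.81 CPM at 50 µM and 1.83 to 2.68 CPM at 100 µM, and APOA1 and TTR were below 1 CPM in all 9 libraries. HNF4A had 32.4 to 45.0 CPM in the control. At 50 µM HNF4A had 21.1 to 25.2 CPM, and at 100 µM 24.1 to 37.8 CPM. SERPINA1 had 0.69 to 1.27 CPM in the control, 0.09 to 0.23 CPM at 50 µM and 0.42 to 0.89 CPM at 100 µM. AFP ran at 4.15 to 6.75 CPM over all 9 libraries. The 10 hepatocyte markers, led by the keratins, summed to 4336 to 5239 CPM in the control, 4204 to 4413 CPM at 50 µM and 3549 to 4957 CPM at 100 µM. Of the 6 leukocyte markers CD68 held nearly all of the sum, which was 138.7 to 199.5 CPM in the control, 127.9 to 144.3 CPM at 50 µM and 216.7 to 297.1 CPM at 100 µM. CD3E, which marks T cells, was at or below 0.05 CPM. LUM led the 6 fibroblast markers, with sums of 72.8 to 114.7 CPM in the control, 84.2 to 97.6 CPM at 50 µM and 86.3 to 154.8 CPM at 100 µM, while COL1A1 did not exceed 0.69 CPM. The 4 endothelial markers summed to 36.9 to 40.4 CPM in the control, 20.0 to 22.4 CPM at 50 µM and 21.6 to 26.2 CPM at 100 µM. The part of these markers in the results on ribosomal proteins was not tested.

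On the authors' TPM, a share of transcripts scaled for their length, the most abundant members were RPS18, RPS2, RPL39, RPLP0 and RPS27. RPS18, a protein of the head of the small subunit, averaged 5243 ± 285 TPM in the control, 6413 ± 641 TPM at 50 µM and 5671 ± 1706 TPM at 100 µM (SD, n = 3 each). RPS2, beside the mRNA entry channel, averaged 4280.0 ± 142 TPM in the control, 4724 ± 245 TPM at 50 µM and 4537 ± 451 TPM at 100 µM. In RPS18 and RPS2, and in RPL39, RPLP0 and RPS27 below, the SD was widest at 100 µM. RPL39, a short protein of the exit tunnel, averaged 3397 ± 442 TPM in the control, 4280.0 ± 260.9 TPM at 50 µM and 4336 ± 994 TPM at 100 µM. RPLP0, the base of the stalk, averaged 3213 ± 183 TPM in the control, 3922 ± 83.3 TPM at 50 µM and 4064 ± 1030.3 TPM at 100 µM. RPS27, a zinc-binding protein of the small subunit, averaged 3082 ± 482 TPM in the control, 3965 ± 452 TPM at 50 µM and 3876 ± 913 TPM at 100 µM. At the other end stood paralogues: over all 9 libraries RPL10L averaged 0.0956, RPL3L 0.473, RPL22L1 18.6 and RPS27L 28.6 TPM. TPM rests on how the authors assigned reads to transcripts: RPL37 had only 50.8 TPM at 105.7 to 293 CPM. The libraries also went through a step that depletes abundant transcripts. These ranks, and the shares of counts below, may therefore differ from those in the cells.

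Together the 84 genes took 4.18, 3.68 and 3.76% of the counts in control replicates 1 to 3. They took 4.81, 4.63 and 5.13% in the 50 µM libraries, all above the control. At 100 µM they took 3.87, 4.09 and 5.98%: replicates 1 and 2 lay within the control range, and replicate 3 held the highest share of the 9 libraries. Gene by gene the order was alike. Relative to its own control mean, the median member stood at 0.07, -0.05 and -0.03 on the log2 scale in the control libraries. It stood at 0.30, 0.24 and 0.40 in the 50 µM libraries, and at -0.02, 0.07 and 0.68 in the 100 µM libraries. The median of all genes tested lay between -0.02 and 0.003 in every library. The RNA is bulk, so more of it per cell and another mix of cells cannot be told apart.

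**Figure D1:**
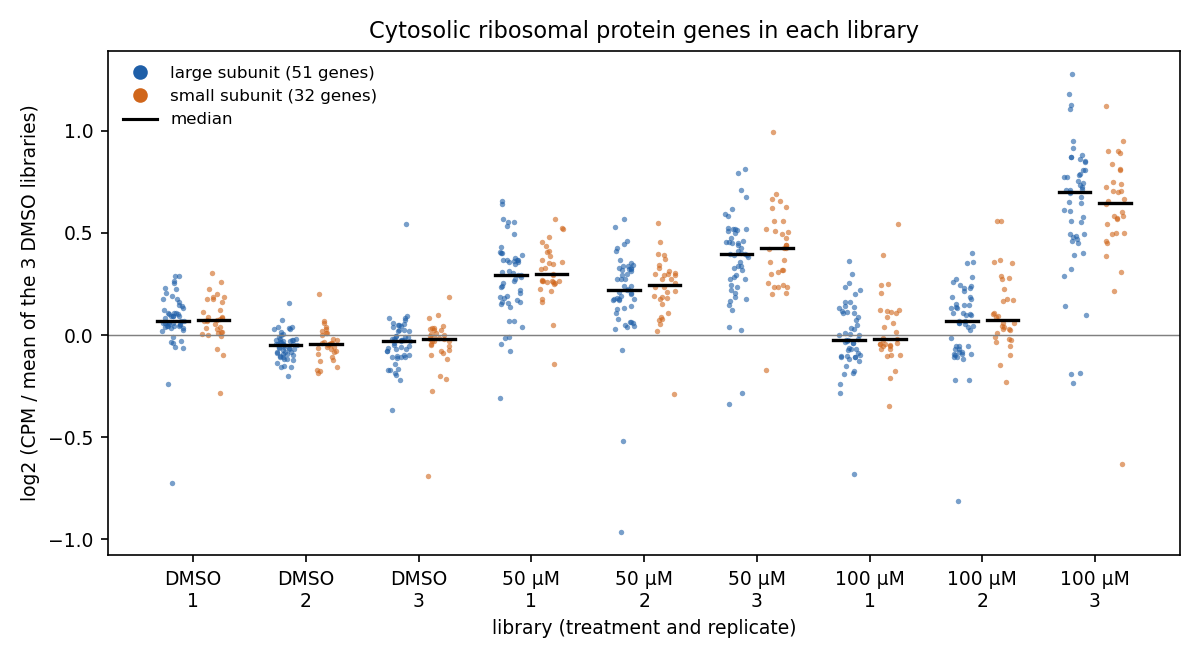
Each point is a tested member in a library, as log2 of its CPM over the mean of the 3 control libraries (vertical axis), with large-subunit genes in blue, small-subunit genes in orange and medians as black bars. The 3 libraries at 50 µM lie above the control, 100 µM replicates 1 and 2 lie near 0, and 100 µM replicate 3 has medians of 0.70 and 0.65.

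**Figure D2:**
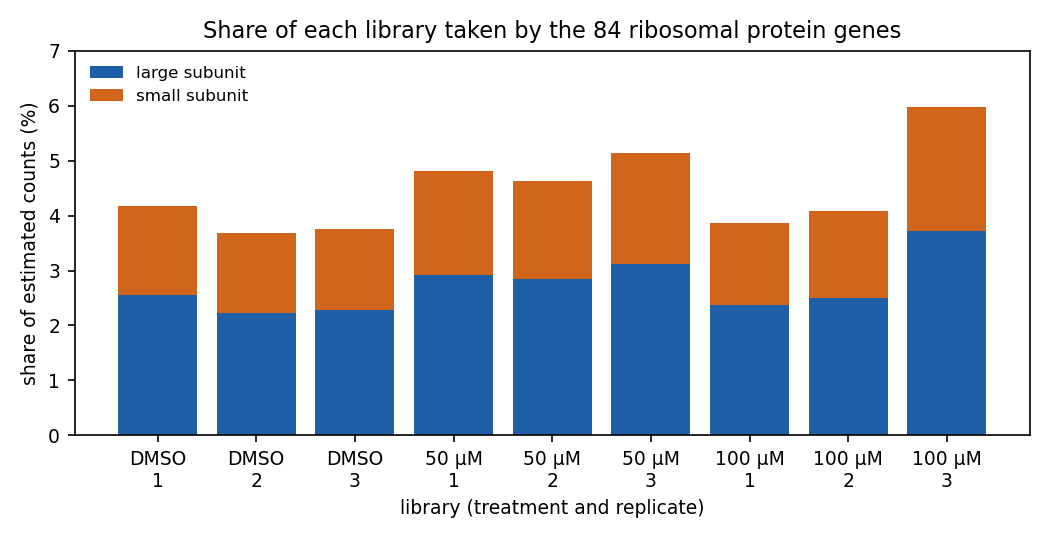
Share of the estimated counts (%) taken by the 52 large-subunit genes (blue) and the 32 small-subunit genes (orange, stacked on top) in each library. The total was 3.68 to 4.18% in the control, 4.63 to 5.13% at 50 µM, and 5.98% in 100 µM replicate 3.

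At 50 µM against the control, nearly all ribosomal protein mRNAs had estimates above 0, while RPS27L alone passed the test with all libraries. The estimate lay above 0 for 80 of the 83 tested members, with a median log2 fold change of 0.31 (1.24-fold), against 0.003 over all genes tested. By edgeR's quasi-likelihood test, with adjustment over all 12832 genes and a threshold of 0.05, 1 member was called higher (RPS27L) and none lower. Of all genes tested, 5.28% were called higher and 6.31% lower. At an unadjusted p under 0.05 there were 30 members higher and 1 lower, where 15.2% and 17% of all genes passed. In 69 members all 3 libraries at 50 µM lay above all 3 controls, against 24.4% of all genes, and in RPL22L1 all 3 lay below, against 24.6%. The other 13 overlapped.

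The count of calls depended on whether 100 µM replicate 3 entered the shared fit. Without that library edgeR called 67 members higher and RPL22L1 lower, where 18.4% and 18.2% of all genes passed, and the median was 0.32. It was left out after its values were seen. At 50 µM the estimates moved little, while the SE shrank in members such as RPL13A, from 0.24 to 0.07. In RPS29 the SE stayed at 0.26. The 50 µM calls of that fit thus carry the choice through the spread shared by the groups. In a fit of the 50 µM and control libraries alone 58 were higher (15.8% of genes) and 1 lower (18%). Without both libraries that stand apart there were 71 higher and 2 lower, against 28.5% and 28.9% of all genes. DESeq2 on all 9 libraries called 11 higher (9.38% of genes) and 0 lower (10.6%). The authors' deposited table gave a positive log2 fold change with a q-value under 0.05 for 59 members (10.4% of genes) and a negative one for RPL22L1 (12% of genes).

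At 100 µM against the control the family had a median log2 fold change of 0.28 (1.22-fold), against 0.001 over all genes, and 77 of 83 estimates lay above 0. By edgeR 4 members were called higher, where 10.7% of all genes were, and 1 lower, where 10.3% were. The 4 were RPL28, RPLP1, RPS27L and RPS28, and the 1 was RPL22L1. At an unadjusted p under 0.05 the counts were 26 and 2, beside 18.2% and 18.4% of all genes. The groups did not overlap in 19 members that were higher (17.3% of genes) and in RPL7L1, which was lower (18.6% of genes). The authors' deposited table gave the same 4 genes as higher and none as lower, at 5.97% and 5.26% of genes. With the 100 µM and control libraries alone, edgeR called RPS27L higher and 0 members lower, against 4.63% and 3.45% of genes. DESeq2 on all 9 libraries called 17 higher and 2 lower, against 12.8% and 13% of genes.

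The median at 100 µM rested on replicate 3. Without it the median of the members was 0.04, and edgeR called 6 higher and 3 lower, against 15.2% and 14.6% of all genes. RPL28, RPLP1, RPS27L and RPS28 were again among the higher, with RPL13A and RPL4. RPL22L1 was again lower, with RPL14 and RPS7. RPL4, RPL14 and RPS7 are named after their values were seen. RPL4, the longest member, had 1079.5, 1087.9 and 1598.2 CPM at 100 µM, against 964.6, 873.9 and 942.8 CPM in the control. RPL14 of the large subunit had 278.9, 291.2 and 477.8 CPM at 100 µM, against 352.3, 330.9 and 333.9 CPM in the control. RPS7, a small-subunit protein, had 166.3, 180.4 and 262.1 CPM at 100 µM, against 213.8, 205.2 and 215.3 CPM in the control. In RPL14 and RPS7, replicates 1 and 2 at 100 µM lay below all controls and replicate 3 above them. Without control replicate 1 as well, 27 members were called higher and 6 lower, against 24.2% and 24.4% of genes, at a median of 0.07.

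Replicate 3 at 100 µM was the highest of the 9 libraries in 77 of the 83 members, against 25.8% of all genes tested, and the lowest in 2. Over the mean of replicates 1 and 2, the median member was 1.55-fold higher in replicate 3, where the median gene was 1.01-fold. RPL13A, which also leaves the ribosome to silence inflammatory mRNAs, had 2713.6 CPM in replicate 3 and 1284 and 1426.9 CPM in the other 2, a ratio of 2.0. RPL26, of the large subunit, had 777.9 CPM there and 388.2 and 393.9 CPM in the others, a ratio of 1.99. RPS26, at the mRNA exit of the small subunit, went the other way, with 123.1 CPM in replicate 3 and 181.8 and 187.4 CPM in the others, a ratio of 0.667. The members in which replicate 3 was not the highest library were RPL22L1, RPL26L1, RPL38, RPL39L, RPL7L1 and RPS26, 4 of them paralogues. In 68 members replicates 1 and 2 at 100 µM both lay below all 3 libraries at 50 µM, against 31.7% of all genes.

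Between the doses, 100 µM against 50 µM, edgeR called 0 members higher (2.25% of genes) and 0 lower (1.89%) with all libraries. At an unadjusted p under 0.05 there were 1 higher and 2 lower, against 11.4% and 10.6% of genes, and DESeq2 called 1 and 1 (5.14% and 5.24%). With the 100 µM and 50 µM libraries alone edgeR called 0 and 0 (1.42% and 0.559%). The median was -0.04, against 0.01 over all genes. The groups did not overlap in RPL28 and RPLP1, which were higher (13.3% of genes), nor in RPL26L1, RPL39L and RPL7L1, which were lower (14.4%). Without 100 µM replicate 3 the median fell to -0.26, and edgeR called 47 members lower (13.4% of genes) and RPL28 higher (14.1%). The 47 were 30 of the large and 17 of the small subunit. That fit holds 2 libraries at 100 µM. Replicate 3, left out after its values were seen, was the highest of the 9 libraries in 77 of 83 members. Leaving it out thus lowers most 100 µM estimates, and calls of that fit, here and for single genes, carry that choice. Without control replicate 1 as well there were 63 lower (22.7%) and 2 higher (24.6%). In the authors' deposited table RPL7L1 was lower with a q-value under 0.05 (2.7% of genes) and no member was higher (3.16%). Comparisons that share the control or the 50 µM libraries are not independent of each other.

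**Figure D3:**
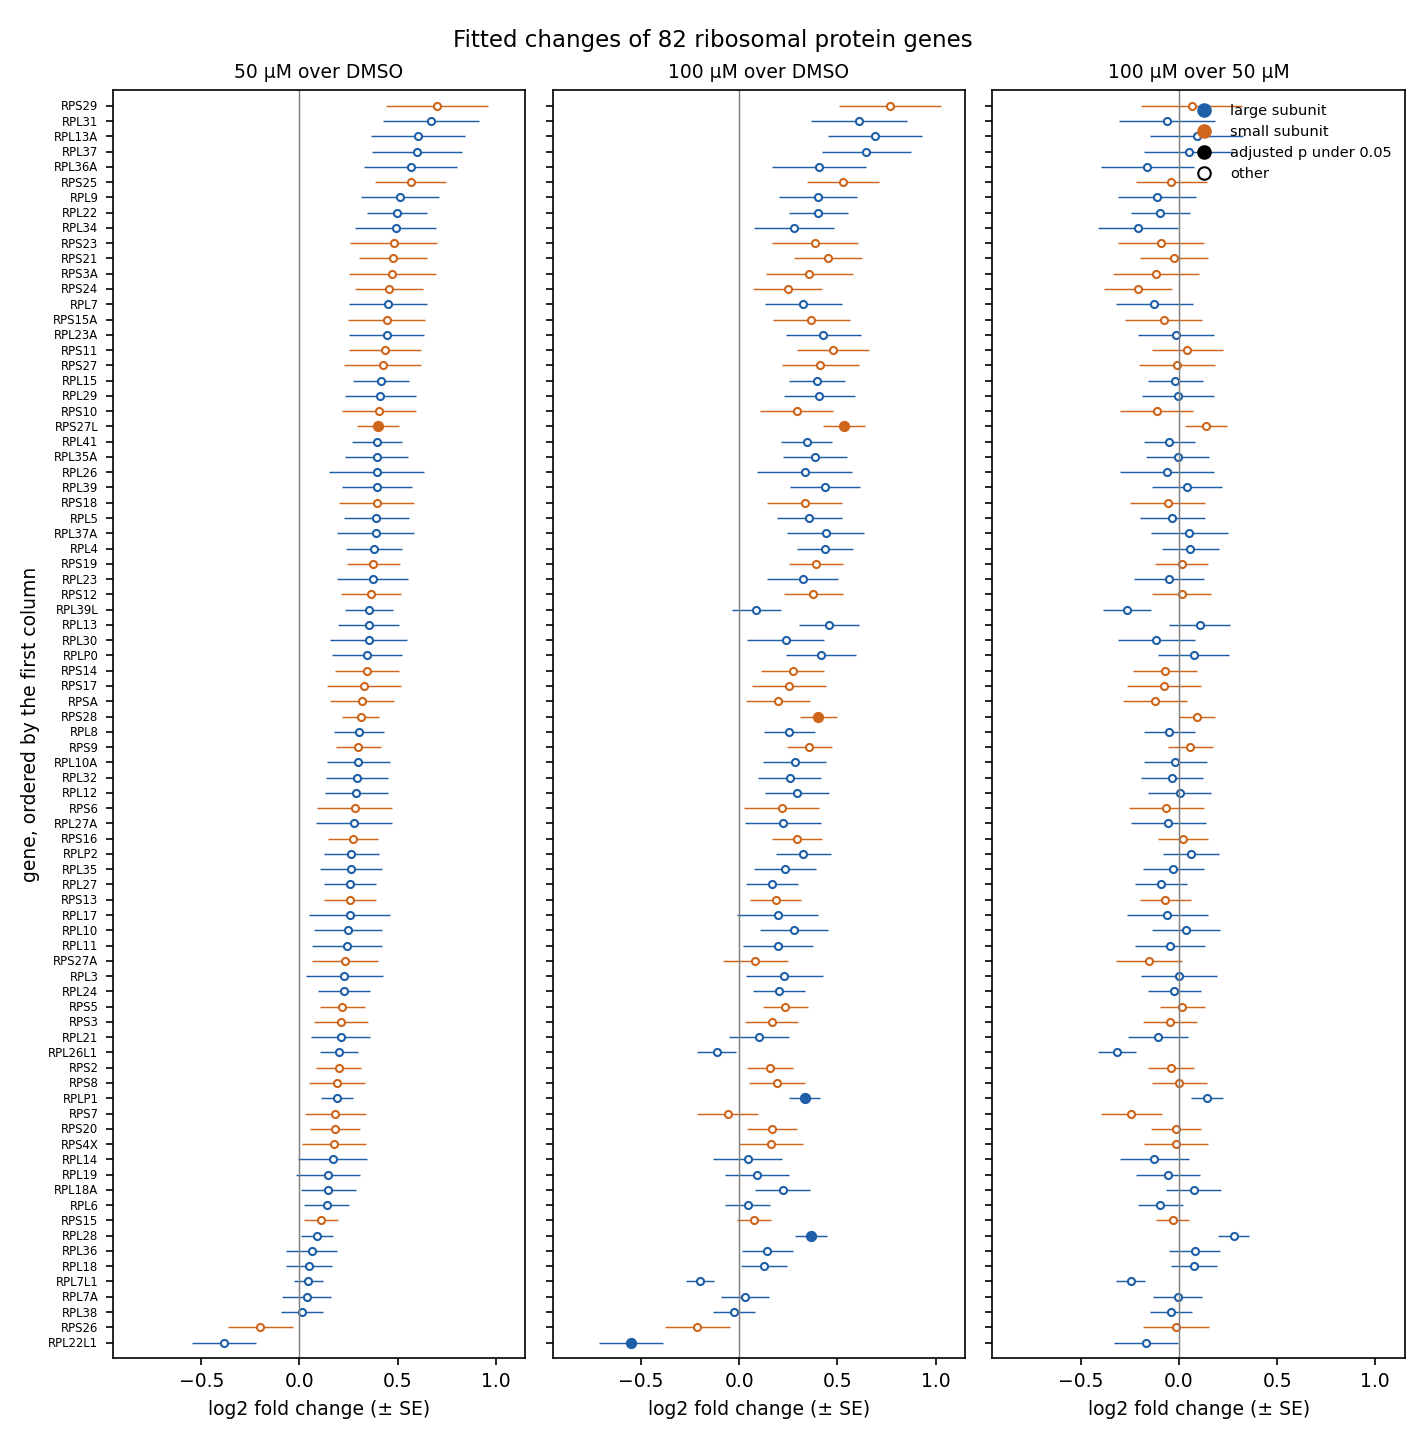
Fitted log2 fold changes with their SE (horizontal axis) of 82 members, in 3 panels: 50 µM over control, 100 µM over control, and 100 µM over 50 µM, from 3 libraries a group. Filled points passed an adjusted p of 0.05 in edgeR; RPL3L, at under 1 CPM, is left out. With RPL3L counted, estimates lie right of 0 for 80 of 83 members at 50 µM and 77 of 83 at 100 µM.

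The subunits had like medians. At 50 µM the median log2 fold change was 0.29 over 51 large-subunit members and 0.33 over 32 small-subunit members, and at 100 µM it was 0.28 in each. Between the doses it was -0.04 in each, and -0.27 and -0.25 without 100 µM replicate 3. At 50 µM without that replicate, 39 of 51 large-subunit and 28 of 32 small-subunit members were called higher, beside 18.4% of all genes, at medians of 0.30 and 0.34. Summed over genes, the large subunit held 1.56, 1.54 and 1.54 times the counts of the small subunit in the control. The ratio was 1.55, 1.58 and 1.56 at 50 µM, and 1.58, 1.56 and 1.64 at 100 µM. The highest ratio was again that of 100 µM replicate 3. The difference between the subunits was not tested.

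Among the stalk proteins, which recruit the GTPase factors of translation, RPLP1 was called at 100 µM. RPLP1 (chromosome 15, 69452818 to 69456205, GRCh38) had 590.8, 598.5 and 680.5 CPM at 100 µM, against 512.1, 487.5 and 484.8 CPM in the control. All libraries at 100 µM lay above all controls, replicates 1 and 2 included. RPLP1 had a log2 fold change of 0.33 ± 0.08 (SE; adjusted p = 0.0189 by edgeR). It missed the threshold without control replicate 2 (edgeR adjusted p = 0.074), without control replicate 3 (0.0731), or with only the control and 100 µM fitted (0.0743). At 50 µM RPLP1 had 549.2, 559.1 and 586.3 CPM, between the other groups, and 0.19 ± 0.08 over the control (edgeR adjusted p = 0.136). RPLP0, which anchors RPLP1 and RPLP2, had 1688.3, 1826.5 and 2913.2 CPM at 100 µM, against 1650.5, 1502.8 and 1660.1 CPM in the control. It did not pass at 100 µM (0.42 ± 0.18; edgeR adjusted p = 0.124). At 50 µM RPLP0 had 2066.6, 1938.2 and 2101.2 CPM, all above the control (0.34 ± 0.18; edgeR adjusted p = 0.214, and 0.0028 without 100 µM replicate 3). RPLP2 had 308.6, 269 and 242.4 CPM in the control, 309.6, 315 and 361.1 CPM at 50 µM, and 294.2, 317.8 and 416.1 CPM at 100 µM. It passed in neither comparison with all libraries.

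RPL28, a large-subunit protein with no counterpart in budding yeast, was called at 100 µM. RPL28 (chromosome 19, 55385932 to 55403342) had 293.5, 278.5 and 312.4 CPM at 100 µM, against 226.7, 240.6 and 218.3 CPM in the control. The 3 libraries at 50 µM, with 227.2, 246 and 256.2 CPM, overlapped the control. At 100 µM the log2 fold change was 0.37 ± 0.08 (edgeR adjusted p = 0.013), and 0.33 without replicate 3 (0.00699). That call ended without control replicate 3 (edgeR adjusted p = 0.0613) and with the 2 groups alone (0.0517). Over 50 µM it was 0.28 ± 0.08 (edgeR adjusted p = 0.0822, and 0.0389 without 100 µM replicate 3). In RPL28 and RPLP1, replicate 3 stood 1.09-fold and 1.14-fold over the mean of replicates 1 and 2, less than the median member.

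RPL5 and RPL11 join the 5S rRNA before it enters the large subunit, and outside the ribosome they bind the ubiquitin ligase MDM2. RPL5 had 424.3, 391.2 and 399.9 CPM in the control, 522.7, 521.9 and 548.9 CPM at 50 µM, and 419.2, 444 and 692.3 CPM at 100 µM. RPL11 had 357, 332.4 and 338 CPM in the control, 402.4, 385.7 and 426.3 CPM at 50 µM, and 319.3, 321 and 537.1 CPM at 100 µM. In each the 50 µM libraries lay above all controls, and 100 µM replicates 1 and 2 below all 50 µM libraries. Over the control at 50 µM, RPL5 had 0.39 ± 0.17 and RPL11 0.24 ± 0.18 (edgeR adjusted p = 0.139 and 0.373). Without 100 µM replicate 3 these became 0.40 (edgeR adjusted p = 0.00114) and 0.25 (0.0105). Between the doses they then were -0.30 for RPL5 (edgeR adjusted p = 0.00953) and -0.34 for RPL11 (0.00613).

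RPS28, a small protein of the head of the small subunit, was called at 100 µM. RPS28 (chromosome 19, 8321496 to 8323340) had 109.1, 117.6 and 137.3 CPM at 100 µM, against 97.4, 89.3 and 88.5 CPM in the control. All 3 lay above the controls, and so did the 50 µM libraries, with 110, 114.1 and 117.5 CPM. RPS28 changed by 0.40 ± 0.09 on the log2 scale at 100 µM (edgeR adjusted p = 0.0162) and had 0.31 ± 0.09 at 50 µM (0.057). At 100 µM it did not pass without control replicate 2 (edgeR adjusted p = 0.0652), without control replicate 3 (0.0663) or with the 2 groups alone (0.0635).

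RPSA, RPS6 and RPS19 are small-subunit proteins: RPSA is also known as the laminin receptor, RPS6 is phosphorylated by the S6 kinases below mTORC1, and RPS19 is the gene most often mutated in Diamond-Blackfan anaemia. RPS6 had 337.8, 333.3 and 347.2 CPM in the control, 424.5, 393.8 and 420.4 CPM at 50 µM, and 300.6, 331.1 and 551.7 CPM at 100 µM. RPSA had 585.4, 553.6 and 569.6 CPM in the control, 699.5, 670.5 and 763 CPM at 50 µM, and 532.1, 565.5 and 864 CPM at 100 µM. Both show the family's pattern, with 50 µM above the control and 100 µM split between replicate 3 and the others. RPS19 had 586.2, 599.4 and 566.4 CPM in the control, 746.7, 715.7 and 812.6 CPM at 50 µM, and 634.9, 707.3 and 953.3 CPM at 100 µM. In RPS19 every library at either dose lay above all controls. None of the 3 passed with all libraries. Without 100 µM replicate 3, edgeR gave log2 fold changes at 50 µM of 0.29 for RPS6 (adjusted p = 0.00519), 0.33 for RPSA (0.00369) and 0.39 for RPS19 (0.00229).

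The paralogues are set beside their partners. RPS27L, the paralogue of RPS27, was the member called at both doses. RPS27L (chromosome 15, 63125872 to 63158021) had 75.9, 62.6 and 61.5 CPM in the control, 83.6, 84.6 and 95.5 CPM at 50 µM, and 87.4, 98.3 and 104.1 CPM at 100 µM. No library of either dose overlapped the control. Its log2 fold change was 0.53 ± 0.11 at 100 µM (edgeR adjusted p = 0.00897, and 0.00508 without replicate 3). At 50 µM it was 0.40 ± 0.11 (edgeR adjusted p = 0.042). The call at 50 µM was lost without control replicate 2 (0.169) or 3 (0.161), without any 50 µM replicate (0.0996 to 0.169), and without 100 µM replicate 2 (0.0572). Its partner RPS27 had 499.8, 439.8 and 378.3 CPM in the control, 567.4, 524.4 and 676.1 CPM at 50 µM, and 475.6, 494.9 and 784.9 CPM at 100 µM, and overlapped the control at 100 µM. RPS27 had 0.41 ± 0.20 at 100 µM and 0.42 ± 0.20 at 50 µM (edgeR adjusted p = 0.156 and 0.166). RPS27 without 100 µM replicate 3 had 0.15 at 100 µM and passed at 50 µM, with 0.43 (edgeR adjusted p = 0.0152).

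RPL22L1, the paralogue of RPL22, was the member called lower. In mouse, RPL22 binds the Rpl22l1 message and lowers its level. RPL22L1 (chromosome 3, 170864875 to 170870195) had 12.7, 11.6 and 17.3 CPM at 100 µM, against 17.2, 22.7 and 21.1 CPM in the control. Replicate 3 at 100 µM overlapped control replicate 1, the 2 libraries that stand apart. At 100 µM RPL22L1 had a log2 fold change of -0.55 ± 0.16 (edgeR adjusted p = 0.0402), and -0.73 without 100 µM replicate 3 (0.00199). With all others kept, the call was lost on leaving out control replicate 2 (edgeR adjusted p = 0.152) or 3 (0.13), any 50 µM replicate (0.063 to 0.0687), or 100 µM replicate 1 (0.0989) or 2 (0.105). It was lost too with upper quartile scaling (0.0526) and with the 2 groups alone (0.113). At 50 µM, with 16.4, 14.2 and 16.1 CPM, all libraries lay below the control (-0.38 ± 0.16; edgeR adjusted p = 0.138, and 0.0248 without 100 µM replicate 3). RPL22 had 453.1, 367.8 and 393.5 CPM in the control, 585.8, 551.8 and 577.8 CPM at 50 µM, and 475.6, 448.9 and 681.8 CPM at 100 µM. All of its 50 µM libraries lay above the control (0.50 ± 0.15; edgeR adjusted p = 0.0589, and 0.00123 without 100 µM replicate 3).

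RPL7L1, a relative of RPL7 that acts in large-subunit assembly, had 358.9, 336.3 and 314.7 CPM in the control, 352.5, 347.6 and 342.8 CPM at 50 µM, and 296, 289 and 294.7 CPM at 100 µM. The 100 µM libraries lay below all others, replicate 3 with them. The log2 fold change was -0.20 ± 0.07 over the control (edgeR adjusted p = 0.0788) and -0.25 ± 0.07 over 50 µM (0.0863, and 0.0247 without 100 µM replicate 3). RPL7 itself had 1372, 1254.6 and 1366 CPM in the control, 1794.9, 1657.1 and 2009.5 CPM at 50 µM, and 1312, 1365.8 and 2328.9 CPM at 100 µM. RPL7 had 0.33 ± 0.20 at 100 µM and 0.45 ± 0.20 at 50 µM over the control (edgeR adjusted p = 0.258 and 0.148). RPL7 without 100 µM replicate 3 had 0.02 at 100 µM and was called at 50 µM, with 0.46 (edgeR adjusted p = 0.00167).

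RPL26L1 had 27.3, 28.4 and 25.9 CPM at 100 µM, against 33.2, 30.7 and 37.7 CPM at 50 µM, without overlap. Its log2 fold change between the doses was -0.32 ± 0.10 (edgeR adjusted p = 0.0997). The control, with 31.7, 28.1 and 28.5 CPM, overlapped each. RPL26 had 476.1, 371.5 and 390.7 CPM in the control, 541.3, 517.7 and 568.5 CPM at 50 µM, and 388.2, 393.9 and 777.9 CPM at 100 µM.

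RPL39L, the paralogue of RPL39 known from testis, had 24, 25.9 and 26.5 CPM at 100 µM, against 29.4, 29.5 and 32.9 CPM at 50 µM, again without overlap (-0.27 ± 0.12; edgeR adjusted p = 0.245). In the control RPL39L had 28.8, 20.9 and 22.3 CPM, below all 50 µM libraries (0.35 ± 0.12 at 50 µM; edgeR adjusted p = 0.0861, and 0.0296 without 100 µM replicate 3). RPL39 had 610.7, 509.9 and 502 CPM in the control, 693.8, 663.8 and 774.1 CPM at 50 µM, and 604.7, 614.4 and 973.8 CPM at 100 µM. RPL3L, the paralogue of striated muscle, stayed between 0.23 and 0.99 CPM, and its estimates were -0.25 ± 0.52 at 50 µM, 0.43 ± 0.49 at 100 µM and 0.68 ± 0.50 between the doses (edgeR adjusted p = 0.765, 0.559 and 0.472). RPL3 had 720.7, 748.4 and 793.7 CPM in the control, 870.6, 862 and 919.6 CPM at 50 µM, and 699.5, 706.3 and 1246.9 CPM at 100 µM. RPL10 had 1193.9, 1101.3 and 1142.2 CPM in the control, 1374.1, 1318.7 and 1383.6 CPM at 50 µM, and 1092.1, 1200.2 and 1882.5 CPM at 100 µM. RPL3 and RPL10 thus lay above all controls at 50 µM and split at 100 µM. Over the 6 tested paralogues the median was 0.12 at 50 µM and -0.01 at 100 µM, beside 0.31 and 0.29 over the other 77 members. At 100 µM the medians were -0.07 and 0.04 without replicate 3. The difference between paralogues and partners was not tested.

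**Figure D4:**
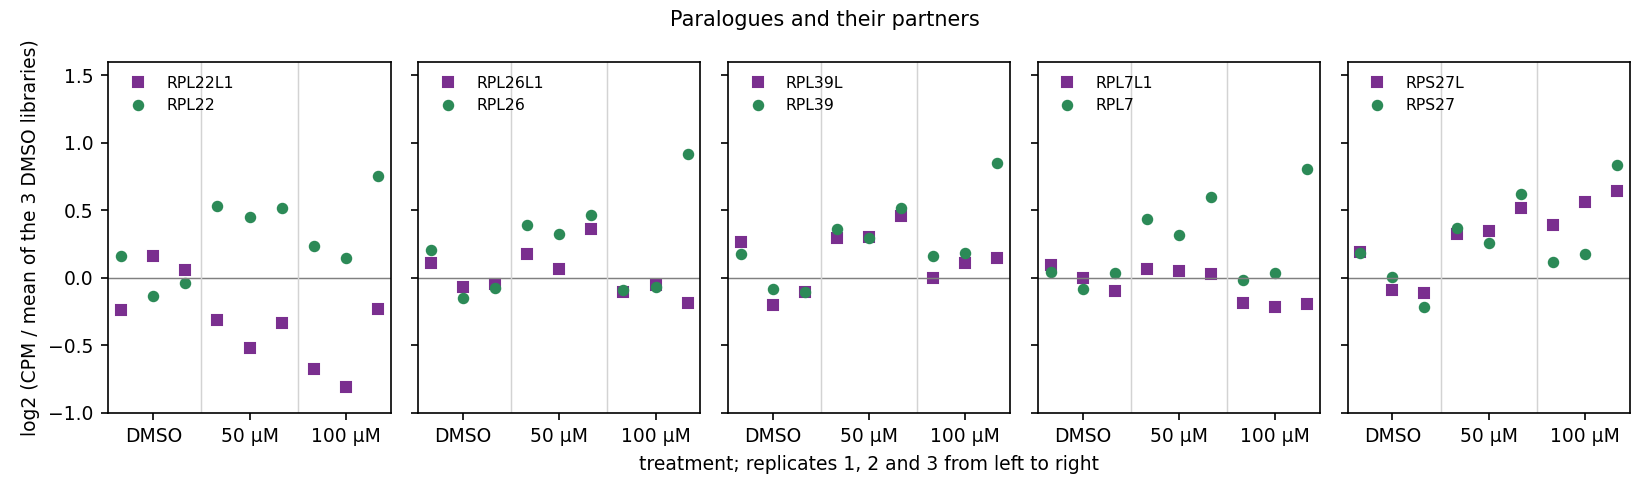
CPM of 5 paralogues (purple squares) and their partners (green circles) in each library, as log2 over the mean of the 3 control libraries (vertical axis), with replicates 1 to 3 from left to right in each treatment. At 100 µM replicate 3 the partners reach their highest value, while RPL26L1, RPL7L1 and RPL22L1 are below 0.

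Against the control, the largest estimates were those of RPS29, RPL31, RPL13A and RPL37. RPS29, a zinc-binding protein of the small subunit, had 70.9, 66 and 35.6 CPM in the control, 82.3, 84 and 114.4 CPM at 50 µM, and 83.9, 84.6 and 125 CPM at 100 µM. Every treated library lay above the controls, of which replicate 3 was low. The log2 fold change was 0.77 ± 0.26 at 100 µM and 0.70 ± 0.26 at 50 µM (edgeR adjusted p = 0.063 and 0.101), and at least 0.52 and 0.46 with any library left out. RPL31, near the exit of the tunnel, had 266.9, 207.2 and 196.4 CPM in the control, 348.1, 331.5 and 387 CPM at 50 µM, and 250, 267.3 and 505.8 CPM at 100 µM. Its 50 µM libraries lay above the control (0.67 ± 0.25; edgeR adjusted p = 0.0984, and 0.00187 without 100 µM replicate 3). RPL13A had 1655.6, 1614.2 and 1826.2 CPM at 50 µM, against 1195, 1062.7 and 1098.4 CPM in the control (0.60 ± 0.24; edgeR adjusted p = 0.119, and 0.000366 without 100 µM replicate 3). At 100 µM the log2 fold change of RPL13A was 0.69 ± 0.24 with all libraries (edgeR adjusted p = 0.0663) and 0.29 without replicate 3 (0.0228). RPL37, of the large subunit, had 166.3, 136.9 and 105.7 CPM in the control, 192.3, 187.5 and 239.6 CPM at 50 µM, and 167.8, 180.2 and 293 CPM at 100 µM. All of its treated libraries lay above the controls (0.65 ± 0.23 at 100 µM; edgeR adjusted p = 0.0704). The value at 100 µM was 0.36 without replicate 3 (edgeR adjusted p = 0.162). At 50 µM RPL37 had 0.60 ± 0.23 (edgeR adjusted p = 0.108, and 0.0193 without 100 µM replicate 3).

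RPS26 had the lowest estimate against the control after RPL22L1 at 100 µM, and a negative one at 50 µM. It had 156.2, 198.3 and 216.6 CPM in the control, 172.5, 156.1 and 169 CPM at 50 µM, and 181.8, 187.4 and 123.1 CPM at 100 µM. Its lowest library was 100 µM replicate 3, replicate 1 was the lowest control, and it overlapped the control at each dose. The log2 fold change was -0.21 ± 0.17 at 100 µM and -0.20 ± 0.17 at 50 µM (edgeR adjusted p = 0.378 and 0.426). The value at 100 µM was -0.04 without 100 µM replicate 3, above those of RPS7 (-0.28) and RPL14 (-0.24). RPS18, the most abundant member on the TPM scale, had 961.2, 849.6 and 952.4 CPM at 50 µM, against 746.7, 671.2 and 686.4 CPM in the control, without overlap (0.39 ± 0.19; edgeR adjusted p = 0.186, and 0.00212 without 100 µM replicate 3). RPS2, the next on the TPM scale, had 2146.6, 1892.5 and 2142.5 CPM at 50 µM, against 1713.8, 1770 and 1898.8 CPM in the control, with overlap (0.20 ± 0.12; edgeR adjusted p = 0.26, and 0.0414 without 100 µM replicate 3).

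Coding length ran from 25 codons in RPL41 to 427 in RPL4, with a median of 151 (GENCODE 29, stop codon left out). Across the 83 tested members Spearman's rho between coding length and log2 fold change was -0.28 at 50 µM, -0.22 at 100 µM and -0.04 between the doses. The same measure within the control group reached 0.65 for replicate 3 and -0.60 for replicate 1, each against the other 2 controls, and -0.46 for 50 µM replicate 3 against its group. Short members tended to be low in control replicate 3, among them RPS29 with 56 codons and RPL37 with 97. The members share libraries and are not independent, so these values are descriptions. The part of transcript length in the changes of the shortest members was not tested.

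The 43 tested members that begin with the tract had a median log2 fold change of 0.34 at 50 µM, and the 23 with a RefSeq start and no tract 0.25. This split takes the annotated first base alone: within 10 bases of the start, 56 of the 67 members held a tract. The group without it also takes in the paralogues RPS27L, RPL26L1 and RPL7L1, and the group with it RPL22L1. At 100 µM the medians were 0.33 and 0.20, and between the doses -0.04 and -0.03. Without 100 µM replicate 3 they were 0.35 and 0.26 at 50 µM, with 37 of 43 and 15 of 23 called higher beside 18.4% of all genes, and 0.04 and -0.01 at 100 µM. Of the 4 members called higher at 100 µM, RPLP1 and RPL28 begin with the tract, and RPS28 and RPS27L do not, as printed above. In RPS28 such a run begins at the base after the annotated start. RPL22L1, which was lower, begins with it too. The difference between members with and without the tract was not tested.

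Other mRNAs that carry a TOP tract, such as those of elongation factors and eIF3 subunits, were counted beside the family. Of 29 such genes 27 were tested. At 50 µM 0 passed in either direction by edgeR (5.28% and 6.31% of all genes did), at a median of 0.03. At an unadjusted p under 0.05 there were 4 each way, where 15.2% of all genes were higher and 17% lower. Without 100 µM replicate 3 edgeR called 10 higher and 2 lower (18.4% and 18.2% of genes). At 100 µM 2 were higher and 3 lower (10.7% and 10.3% of genes), at a median of 0.10. Without replicate 3 there were 4 and 6 (15.2% and 14.6% of genes), at a median of -0.02. TPT1, a translationally controlled tumour protein, had 491, 534.5 and 894.3 CPM at 100 µM, against 398.1, 345.3 and 346.6 CPM in the control (0.82 ± 0.20; edgeR adjusted p = 0.019). EIF3K, a subunit of eIF3, had 115.5, 113.3 and 117 CPM at 100 µM, against 140, 154.1 and 177.3 CPM in the control (-0.45 ± 0.09; edgeR adjusted p = 0.00847). EIF2S3, the gamma subunit of eIF2, had 226.1, 211.6 and 231.6 CPM at 100 µM, against 261, 281.5 and 270.2 CPM in the control (-0.28 ± 0.07; edgeR adjusted p = 0.0266). TPT1 shared the high value of replicate 3, and EIF3K and EIF2S3 did not. Over the 27 genes replicate 3 was the highest library in 17 (63% against 25.8% of all genes), at a median of 1.23-fold over replicates 1 and 2.

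Of 24 regulators of ribosomal protein synthesis, 1 was higher and 1 lower at 50 µM, beside 5.28% and 6.31% of all genes. At 100 µM 2 were higher and 3 lower, beside 10.7% and 10.3%, and between the doses 0 and 2, beside 2.25% and 1.89%. The 3 lower at 100 µM, EIF4E, MYC and LARP4, had the smallest p and are given below. The 2 higher are not named. The counts without 100 µM replicate 3 were 3 and 9 at 50 µM (18.4% and 18.2% of genes), 4 and 4 at 100 µM (15.2% and 14.6%), and 3 and 2 between the doses (14.1% and 13.4%). EIF4E, the cap-binding protein, had 131.6, 125 and 132.6 CPM in the control, 144.4, 130.5 and 130.2 CPM at 50 µM, and 106.2, 99.2 and 93.1 CPM at 100 µM. EIF4E at 100 µM had log2 fold changes of -0.38 ± 0.08 over the control and -0.44 ± 0.08 over 50 µM (edgeR adjusted p = 0.00984 and 0.0193). MYC, a transcription factor of ribosome production, had 131.9, 130 and 116.5 CPM in the control, 128.2, 139.6 and 133 CPM at 50 µM, and 98.7, 97.5 and 103.3 CPM at 100 µM. Its log2 fold changes were -0.34 ± 0.08 and -0.42 ± 0.08 over the control and 50 µM (edgeR adjusted p = 0.0142 and 0.0201). In both genes the 3 libraries at 100 µM, replicate 3 included, lay below all others. LARP4, which protects poly(A) tails, had 235.8, 277.1 and 267.2 CPM in the control, 202, 195.6 and 176.3 CPM at 50 µM, and 218.8, 182.3 and 177.3 CPM at 100 µM. LARP4 fell at 50 µM (-0.44 ± 0.11, edgeR adjusted p = 0.0285) and at 100 µM (-0.43 ± 0.11, edgeR adjusted p = 0.0195). LAMTOR2, of the complex that holds mTORC1 at lysosomes, had 67.8, 67.9 and 69.2 CPM at 50 µM, against 59.3, 47.1 and 48.9 CPM in the control (0.40 ± 0.10; edgeR adjusted p = 0.0284).

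The 12 chaperones and escorts of ribosomal proteins had 0 called higher and 4 lower at 100 µM against the control, beside 10.7% and 10.3% of all genes, at a median of -0.20. There were 1 and 6 without 100 µM replicate 3, beside 15.2% and 14.6%. BCCIP, an escort of RPL23, had 102.4, 108 and 98.1 CPM at 100 µM, against 130.5, 142.8 and 169.4 CPM in the control (-0.52 ± 0.11; edgeR adjusted p = 0.00896). PDCD2L, which binds RPS2, had 8.9, 9.02 and 12.6 CPM at 100 µM, against 18.4, 15.2 and 16.1 CPM in the control (-0.71 ± 0.15; edgeR adjusted p = 0.0104). GRWD1, which binds RPL3, had 83.7, 85.3 and 63.4 CPM at 100 µM, against 95.8, 106.1 and 109.9 CPM in the control (-0.42 ± 0.12; edgeR adjusted p = 0.0305). At 50 µM 0 passed by edgeR, where 5.28% of all genes were higher and 6.31% lower. At an unadjusted p under 0.05 there were 3 higher and 0 lower, beside 15.2% and 17% of genes. Without 100 µM replicate 3 edgeR called 3 higher and 0 lower, beside 18.4% and 18.2% of genes. Between the doses 0 were higher and 2 lower (2.25% and 1.89% of genes), and 7 lower without 100 µM replicate 3 (13.4%). The 2 were LTV1, an assembly factor of the small subunit, and HEATR3, which brings RPL5 into the nucleus. LTV1 had 37.6, 41.7 and 35.8 CPM at 100 µM, against 53, 55 and 57.2 CPM at 50 µM (-0.52 ± 0.08; edgeR adjusted p = 0.013). HEATR3 had 53.5, 47.6 and 41.4 CPM at 100 µM, against 64.2, 61.2 and 65.5 CPM at 50 µM (-0.42 ± 0.10; edgeR adjusted p = 0.0443). The 78 mitochondrial ribosomal proteins, which form a separate ribosome, had 1 higher and 17 lower at 100 µM against the control, beside 10.7% and 10.3% of all genes, at a median of -0.14. Between the doses 1 was higher and 10 lower, beside 2.25% and 1.89% of all genes, at a median of -0.22. Without 100 µM replicate 3 the counts between the doses were 1 and 38, beside 14.1% and 13.4% of all genes. The median between the doses was then -0.25 for them and -0.26 for the cytosolic family. In single libraries at 100 µM their medians were -0.22, -0.13 and -0.07. Replicate 3 was the highest library in 2 of the 78, against 25.8% of all genes. Replicates 1 and 2 at 100 µM lay below all 50 µM libraries in 56 of the 78 (71.8%), as in 81.9% of the cytosolic members and 31.7% of all genes.

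Ribosomal protein genes have many processed copies: GENCODE 29 names 1144 pseudogenes of 77 of the 84 members. Reads of such copies, of paralogues and of overlapping genes can be split in the authors' counting, and the labels do not state the strand setting, so single members are uncertain to that extent. RPL28, RPS27L and RPL22L1 have 0 named pseudogenes, RPS28 has 3 and RPLP1 has 4. Of 3 readthrough genes in the table, RPL36A-HNRNPH2 held the most reads, with 210.7, 192 and 176.5 CPM at 100 µM, against 123.6, 134.7 and 105.5 CPM in the control. RPL36A itself had 290.3, 317.9 and 574.2 CPM at 100 µM, against 348.3, 279.9 and 264.3 CPM in the control.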

How the data were processed

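RNA from 9 samples was sequenced. Per the labels' protocols, mRNA was bound to oligo(dT) beads and the amplified libraries went through a duplex-specific nuclease step that depletes abundant transcripts, so differences among abundant members may be compressed. The authors deposited expected counts (estimated reads per gene, 26.84% of them whole within 1e-06), FPKM and TPM for each library. The authors also deposited their own log2 fold changes and q-values, from DESeq2 per the file headers. The submitters' processing notes name HISAT2 2.0.4, Bowtie2 2.2.5, RSEM 1.2.12 and GRCh38.p13, without their roles.

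Expected counts were rounded, filtered with filterByExpr (minimum count 10, total 15, share 0.7), which left 12832 genes, scaled by TMM, and fitted over all 9 libraries with a term per group in edgeR 4.0.16 (quasi-likelihood, robust, two-sided; limma 3.58.1, R 4.3.3). P-values were adjusted by Benjamini-Hochberg over all genes tested. The SE was taken as |log2 fold change| over the root of the F statistic. Figures used Python 3.11.15 and matplotlib 3.10.9. CPM values carry the TMM scaling. The common dispersion was 0.0206. The alternatives were other scalings, no filter, unrounded counts, a replicate block, each library left out, the 2 groups alone, DESeq2 1.42.0 and limma on log2 of the deposited FPKM plus 1. The fit was tested on simulated data with known changes.

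The members and lists were chosen with earlier results of these data known. Named were called members where at most 10 were called, the 3 largest and 3 smallest log2 fold changes of each comparison, the 5 with the highest TPM, paralogues with partners, the stalk, RPL5, RPL11, RPSA, RPS6 and RPS19, and up to 3 called genes of each other list and comparison. Gene positions are the authors' and 1-based.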

Additional observations from a re-analysis of the deposited data

How the results depend on the processing

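Counts of members called depended on the libraries entered. With each library left out in turn, members higher ran from 0 to 67 at 50 µM, 1 to 14 at 100 µM and 0 to 1 between the doses. Members lower ran from 0 to 1, 0 to 3 and 0 to 47. The extremes of 67 and 47 came without 100 µM replicate 3, where 18.4% and 13.4% of all genes passed. For settings with no share of all genes beside them, the counts are not read as results about the members. Without that library and control replicate 1, the counts higher and lower at 50 µM were 71 and 2 (28.5% and 28.9% of genes). They were 27 and 6 at 100 µM (24.2% and 24.4%), and 2 and 63 between the doses (24.6% and 22.7%). In fits of the 2 groups alone they were 58 and 1 at 50 µM (15.8% and 18% of genes) and 1 and 0 at 100 µM (4.63% and 3.45%). DESeq2 called 11 higher at 50 µM (9.38% of genes), and 17 higher (12.8%) and 2 lower (13%) at 100 µM. Between the doses it called 1 and 1 (5.14% and 5.24%). Scaling by library totals, the FPKM with limma and a replicate block each left 0 higher at 50 µM; upper quartile scaling and the block left 0 lower at 100 µM. The block pairs libraries by number alone. Deviations of same-numbered libraries from their group means had correlations from -0.46 to 0.28. Those means hold the libraries that stand apart, so these values cannot show whether a number marks a shared culture. The highest correlation between groups was 0.53, of control replicate 1 with 100 µM replicate 3, the libraries that stand apart. What they share was not tested. The median of the members ran from 0.27 to 0.35 at 50 µM, 0.04 to 0.40 at 100 µM and -0.26 to 0.09 between the doses with a library left out. Its lowest values at 100 µM and between the doses came without 100 µM replicate 3. Of 458 values of named genes under these settings, 398 kept direction and side of the threshold, 27 lost the threshold, 32 gained it and 1 reversed: RPL3L at 50 µM was 0.12 without control replicate 3 (edgeR adjusted p = 0.923), the highest of values from -0.56 upwards with a library left out. Where no value shows it, the cause was not tested. Depth limits RPL3L and RPL10L, at under 1 CPM.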
